A study of Mus musculus with 6 samples.

Results

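This account covers 6 microRNAs known from reactive glia and inflammation, mmu-miR-21, mmu-miR-146a, mmu-miR-146b, mmu-miR-155, mmu-miR-221 and mmu-miR-222. They were taken by assay name from a card of 381 assays, of which 375 read microRNAs, and all 6 were on it. RNA came from the microdissected right dentate gyrus, the hippocampal region where neurons are born in adult life, of 6 male C57/Black6J mice aged 6 to 8 weeks. Of these mice 3 received saline and 3 received repeated low doses of kainic acid, a glutamate receptor agonist, until they went through status epilepticus (KA-SE), and all were killed 72 h after the intraperitoneal injections. Only kainic acid mice with long severe seizures were kept in the study, and each library is 1 mouse.

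Reactive gliosis is the response of astrocytes and microglia to injury, and it follows status epilepticus in the hippocampus. miR-21 is induced in reactive astrocytes and represses the cell death regulator Pdcd4. miR-146a and miR-146b form a brake on innate immune signalling by acting on Irak1 and Traf6, and miR-146a is induced by NF-kB. By contrast, miR-155 promotes inflammatory activation of macrophages and microglia and acts on Socs1. miR-221 and miR-222 come from 1 cluster and repress the cell cycle inhibitor p27 (Cdkn1b) in dividing cells. All of these microRNAs are also made in other cell types.

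The mature sequences are shown because 2 pairs among the 6 share a seed, the bases 2 to 8 that select targets, given here in capitals. They are RefSeq sequences on GRCm38.p6, written 5′ to 3′, and all 6 names were matched. The card's names carry no arm, and each sequence is that of the arm which the unstarred name denotes.
mmu-miR-21 (miR-21a-5p): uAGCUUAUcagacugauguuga
mmu-miR-155 (miR-155-5p): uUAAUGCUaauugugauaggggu
mmu-miR-146a (miR-146a-5p): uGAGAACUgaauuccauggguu
mmu-miR-146b (miR-146b-5p): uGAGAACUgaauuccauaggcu
mmu-miR-221 (miR-221-3p): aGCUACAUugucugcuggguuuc
mmu-miR-222 (miR-222-3p): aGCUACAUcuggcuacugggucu

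Counted from 1 at the 5′ end, the miR-146 sequences differ at 2 of 22 positions, G18A and U21C from miR-146a to miR-146b, both outside the seed. The sequences of miR-221 and miR-222, aligned without gaps, differ at 12 of 23 positions, none of them in the seed. Cross-reading between the assays of a pair was not tested. In RefSeq, miR-21 lies at chr11:86584120-86584141 on the minus strand within the protein-coding gene Vmp1, and miR-155 at chr16:84714143-84714165 on the plus strand within its lncRNA host gene Mir155hg. miR-146a lies at chr11:43374435-43374456 on the minus strand, within no other RefSeq gene, and miR-146b at chr19:46342790-46342811 on the plus strand, within the span of the lncRNA gene Gm36493. miR-221 and miR-222 lie on the minus strand at chrX:19146307-19146329 and chrX:19146901-19146923, with 504 bases between their hairpins. The same seeds occur in the mouse microRNAs miR-21c and miR-1928, which were not analysed here.

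A TaqMan assay is read as its threshold cycle (Ct), the cycle of the PCR where fluorescence passes a set level, and more RNA gives a lower Ct. Here a level over U6 is the Ct of the small nuclear RNA U6 in a mouse minus that of the microRNA, which is on a log2 scale for assays that double their product at each cycle, and higher values mean more microRNA. All 6 microRNAs had a Ct below 35, the limit of detection in the study's methods, in every library, and they are among 281 microRNAs that did. Saline replicate 2 stood apart. Its microRNAs were later than the average of the other 2 saline mice by 2.23 cycles in the median, and its 5 control RNAs by only 0.603 to 0.86 cycles. The mean microRNA of this library followed U6 by 11.8 cycles, and that of the other 5 libraries by 9.96 to 10.19 cycles. Fold changes and counts are therefore given with and without it, and a second scale, the mean Ct of the 281 microRNAs minus the Ct of the microRNA, is called the level over the microRNA mean. The neuronal markers miR-124, miR-128a, miR-129-3p and miR-137 were below Ct 35 in all 6 libraries, but they do not tell the dentate gyrus from other brain regions.

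In raw Ct the most readily detected of the 6 was mmu-miR-222, and mmu-miR-155 came last by a wide margin. The saline mice had a mmu-miR-222 Ct of 16.5 ± 1.09 and the KA-SE mice one of 16.3 ± 0.373 (SD, n = 3 each). It ranked between 6 and 12 from the lowest Ct among the 281 microRNAs in the 6 libraries. For mmu-miR-155 these values were 27.6 ± 1.11 and 26.3 ± 0.37, at ranks of 211 to 246. The other 4 lay between them, at ranks of 47 to 101. Of neighbours in this order, mmu-miR-146a and mmu-miR-221 were not separated beyond their spread in saline mice, where the Ct of mmu-miR-146a minus that of mmu-miR-221 was -0.486, -0.006 and 0.031 cycles in replicates 1, 2 and 3. mmu-miR-146b came after mmu-miR-146a in all 6 mice, by 0.683 to 1.22 cycles. Assays differ in efficiency, so an order by Ct is not strictly one of abundance.

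mmu-miR-21 was the microRNA of the 6 with the highest fold change. On each scale used its level in the lowest KA-SE mouse exceeded that of the highest saline mouse. The same held for 19.2% of the 281 microRNAs over U6 and for 12.8% over the microRNA mean. On other scales the share was not counted, and all scales use the same Ct values. The raw Ct of mmu-miR-21 was 20.6, 24.4 and 20.9 in saline replicates 1, 2 and 3 and 19.78, 20.25 and 19.96 in KA-SE replicates 1, 2 and 3. The level over U6 was -7.67, -10.55 and -7.47 in the saline mice and -7.00, -6.68 and -6.63 in the KA-SE mice. The 3 KA-SE mice lay close together (SD 0.201), and saline replicate 2 lay far below the other saline mice, whose gap was 0.197. The log2 fold change over U6 was 1.80 (standard error 0.83), a 3.47-fold difference with a 95% confidence interval from -0.16 to 3.75 on the log2 scale, which did not pass the test over all microRNAs (limma, adjusted p = 0.556). Without saline replicate 2 it was 0.80 (standard error 0.22), or 1.74-fold, with an interval from 0.26 to 1.34, and it did not pass either (limma, adjusted p = 0.389).

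The position of mmu-miR-21 within each library needs no reference RNA. Its Ct ranked 57, 57 and 56 among the 281 microRNAs in the KA-SE mice and 65, 101 and 67 in the saline mice, so that it stood nearer the front in each KA-SE mouse. The share of the 281 microRNAs whose ranks also separate the groups was not counted. The microRNAs of saline replicate 2 came late in general, and mmu-miR-21 more so than most, with a delay of 3.71 cycles that ranked 42 of 281. Over the microRNA mean its level was 2.52, 1.25 and 2.62 in the saline and 2.96, 3.29 and 3.56 in the KA-SE mice. The log2 fold change on this scale was 1.14 (standard error 0.43) with all libraries (limma, adjusted p = 0.467) and 0.70 (standard error 0.22) without saline replicate 2 (limma, adjusted p = 0.387).

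mmu-miR-155, the least readily detected of the group, was also higher over U6 in each KA-SE mouse, as were 19.2% of the 281 microRNAs. Its raw Ct was 26.95, 28.85 and 26.92 in saline replicates 1, 2 and 3 and 26.24, 26.64 and 25.90 in KA-SE replicates 1, 2 and 3. The level over U6 was -14.06, -14.97 and -13.52 in the saline mice and -13.46, -13.06 and -12.57 in the KA-SE mice. The groups were separated by only 0.059 cycles, between saline replicate 3 and KA-SE replicate 1. The log2 fold change was 1.15 (standard error 0.53), or 2.23-fold (limma, adjusted p = 0.556), and 0.76 (standard error 0.34), or 1.69-fold, without saline replicate 2 (limma, adjusted p = 0.509).
Over the microRNA mean the groups overlapped for mmu-miR-155, with -3.87, -3.17 and -3.42 in the saline mice and -3.49, -3.10 and -2.37 in the KA-SE mice. The log2 fold change was then 0.50 (standard error 0.37), with adjusted p = 0.538 in limma, and 0.66 (standard error 0.38, adjusted p = 0.501) without saline replicate 2. Its spread among KA-SE mice over U6 (SD 0.447) was larger than that of the other 5 microRNAs (SD 0.0775 to 0.201) and than the median of all tested (SD 0.198).

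**Figure D1:**
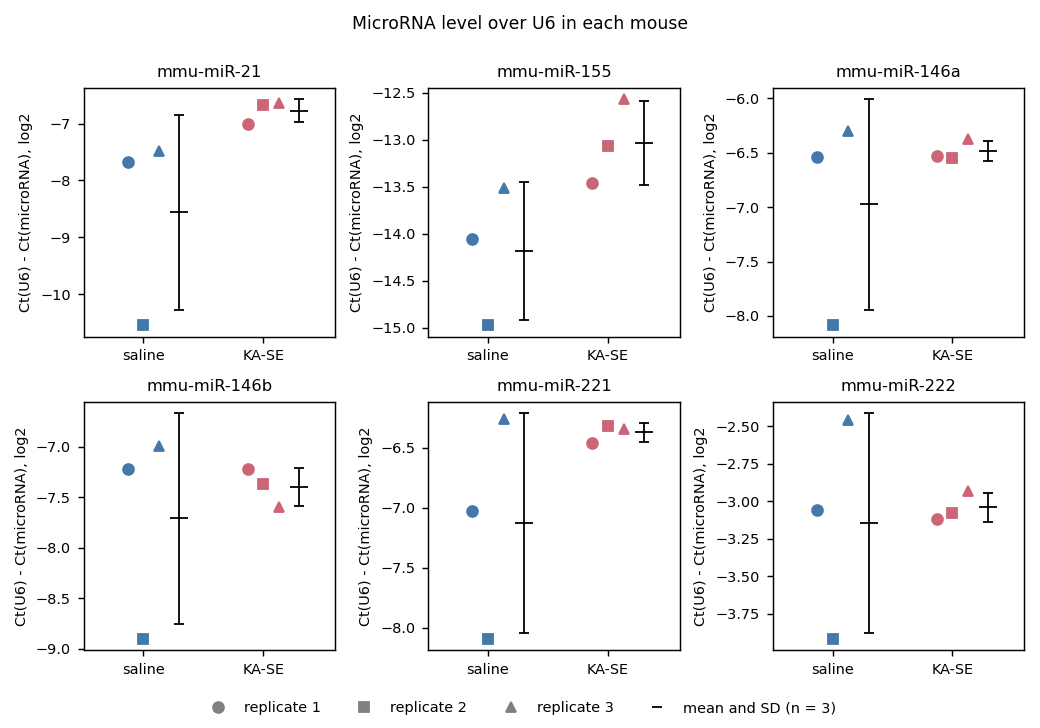
Level over U6 (Ct of U6 minus Ct of the microRNA, log2 scale, own axis range in each panel) of the 6 microRNAs in each mouse, with symbols for the replicate number (different animals in the saline and KA-SE groups) and black bars for the group mean and SD. mmu-miR-21 and mmu-miR-155 are higher in the 3 KA-SE mice than in the 3 saline mice, as are 19.2% of the 281 microRNAs. Saline replicate 2 is the lowest mouse in all 6 panels.

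Over U6 the groups overlapped for both miR-146 microRNAs, and neither passed the test. The level of mmu-miR-146a over U6 was -6.54, -8.09 and -6.30 in the saline mice and -6.53, -6.54 and -6.38 in the KA-SE mice. The KA-SE mice lay within the range of the saline mice, and the log2 fold change was 0.49 (standard error 0.56, limma adjusted p = 0.646), or -0.06 (standard error 0.20) without that library. The 95% confidence interval without it ran from -0.55 to 0.43, so changes of a size within these bounds cannot be told from none. Over the microRNA mean mmu-miR-146a was nearly level in saline, at 3.65, 3.72 and 3.80, and lay at 3.44, 3.43 and 3.82 in KA-SE mice, a log2 fold change of -0.16 (standard error 0.24, limma adjusted p = 0.741) that was the same to 2 decimals without saline replicate 2.
The level of mmu-miR-146b over U6 was -7.22, -8.90 and -7.00 in the saline mice and -7.22, -7.37 and -7.60 in the KA-SE mice, and the log2 fold change was 0.31 (standard error 0.59, limma adjusted p = 0.77) and -0.29 (standard error 0.22, adjusted p = 0.646) without saline replicate 2. Over the microRNA mean it was 2.97, 2.90 and 3.10 in the saline mice and 2.74, 2.60 and 2.60 in the KA-SE mice, all 3 of them below the saline range. The same held for 12.1% of the 281 microRNAs. The log2 fold change of mmu-miR-146b on that scale was -0.35 (standard error 0.23, limma adjusted p = 0.528), or -0.39 (standard error 0.15, adjusted p = 0.396) without saline replicate 2. The direction for both miR-146 microRNAs thus depended on the reference and on 1 library.

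The cluster microRNAs mmu-miR-221 and mmu-miR-222 also overlapped between the groups over U6, and neither passed the test. The level of mmu-miR-221 over U6 was -7.03, -8.09 and -6.27 in the saline mice and -6.46, -6.32 and -6.34 in the KA-SE mice. Saline replicate 3 was the highest of all 6 mice, and the groups overlapped. The log2 fold change was 0.76 (standard error 0.55, limma adjusted p = 0.556), and 0.27 (standard error 0.28, adjusted p = 0.698) without saline replicate 2. For mmu-miR-222 the level over U6 was -3.06, -3.92 and -2.46 in the saline mice and -3.12, -3.08 and -2.93 in the KA-SE mice. The KA-SE mice lay inside the range of the saline mice, and the log2 fold change was 0.10 (standard error 0.50, limma adjusted p = 0.903), and -0.28 (standard error 0.25, adjusted p = 0.655) without saline replicate 2. Over the microRNA mean the log2 fold change was 0.10 for mmu-miR-221 and -0.55 for mmu-miR-222 (limma, adjusted p = 0.871 and 0.528), and without saline replicate 2 it was 0.17 and -0.39 (limma, adjusted p = 0.777 and 0.526).

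**Figure D2:**
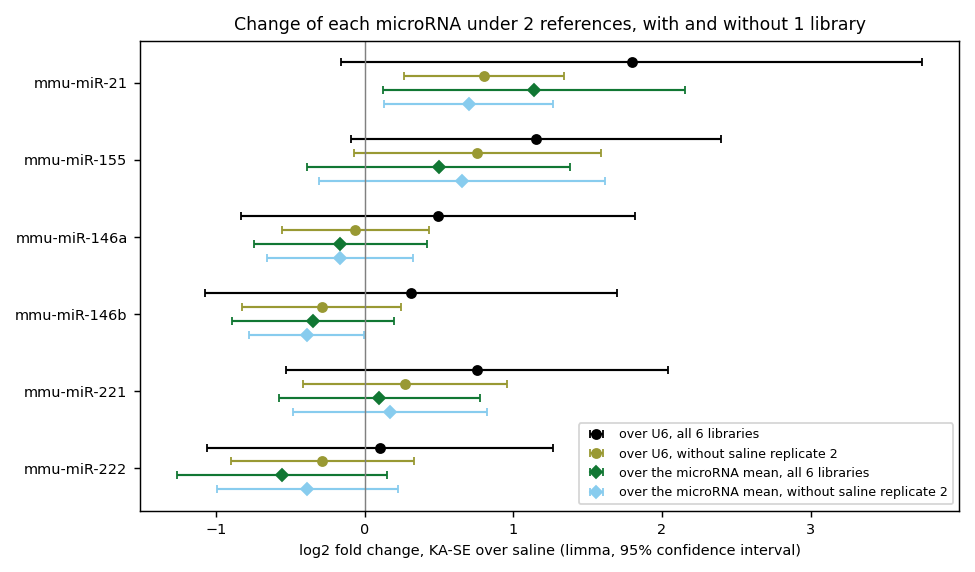
Log2 fold change of each microRNA in KA-SE over saline mice with its 95% confidence interval from limma, over U6 (circles) and over the mean of the 281 microRNAs (diamonds), with all 6 libraries and without saline replicate 2. mmu-miR-21 is positive in the 4 fits, from 0.70 to 1.80, with an interval that includes 0 over U6 with all libraries. mmu-miR-155 and mmu-miR-221 are positive with intervals that include 0 in each fit. mmu-miR-146a, mmu-miR-146b and mmu-miR-222 are above 0 in only 1 of these fits, over U6 with all libraries. Their intervals include 0, except that of mmu-miR-146b over the microRNA mean without saline replicate 2 (-0.774 to -0.004). No interval is adjusted for the 281 microRNAs tested.

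Across the 6, the test called 0 in limma, over U6 with all libraries as well as without saline replicate 2, beside 0% of the 281 microRNAs in both fits. At an unadjusted p under 0.05, 0 of the 6 were below it with all libraries, where 2.85% of the 281 were (8 microRNAs by limma, 6 by the methods' t-test and 3 by limma with a trend and robust variances). Without saline replicate 2 it was 1 of the 6, mmu-miR-21, where 8.54% of the 281 were, and over the microRNA mean again mmu-miR-21, where 8.90% were. On that scale without saline replicate 2 it was 2 of the 6, mmu-miR-21, higher, and mmu-miR-146b, lower, where 12.5% were. Levels of the groups did not overlap over U6 for 2 of the 6, mmu-miR-21 and mmu-miR-155, both higher after KA-SE, as for 19.2% of all 281 in that direction. Without saline replicate 2 they were again the 2 without overlap, where 19.6% of the 281 were higher and 8.90% lower. Over the microRNA mean the groups did not overlap for mmu-miR-21, higher, and mmu-miR-146b, lower, where the shares of the 281 were 12.8% higher and 12.1% lower, and for the same 2 without saline replicate 2, where they were 16% and 15.3%.
The median log2 fold change over U6 was 0.616 for the 281 microRNAs and 0.625 for the 6. Without saline replicate 2 it was 0.115 for all and 0.106 for the 6, of which 3 were positive. As a group the 6 therefore lay where the microRNAs of the card lay. Within that distribution mmu-miR-21 ranked 16 from the highest of 281, or 18 without saline replicate 2, and mmu-miR-155 ranked 63, or 20 without it. mmu-miR-222 ranked 233, or 240, and mmu-miR-146b 199, or 241.

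**Figure D3:**
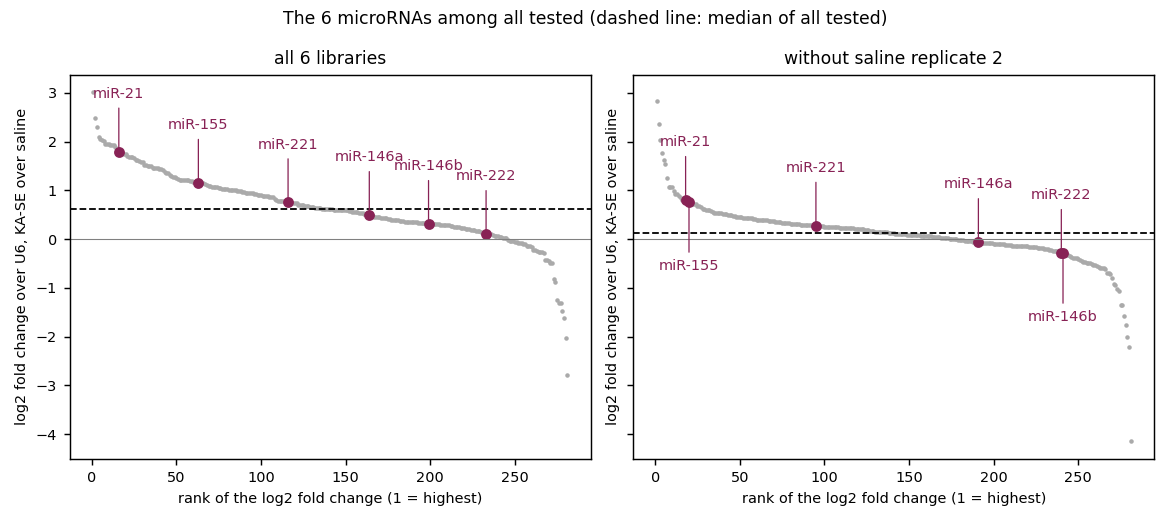
Log2 fold change over U6 of the 281 microRNAs in order of rank (grey points) with the 6 microRNAs in purple, for all 6 libraries and without saline replicate 2. The median of all tested (dashed) falls from 0.62 to 0.115 when that library is left out, mmu-miR-21 keeps a place near the top (ranks 16 and 18), and mmu-miR-222 and mmu-miR-146b sit in the lower part (ranks 240 and 241 without the library).

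The difference between the Ct of 2 microRNAs of the same mouse cancels the amount of RNA and the reference, and it was used to compare the 6 with each other. miR-222 led miR-221 by less in KA-SE mice. The Ct of mmu-miR-222 minus that of mmu-miR-221 was -3.97, -4.17 and -3.81 cycles in the saline mice and -3.34, -3.24 and -3.41 cycles in the KA-SE mice, or -3.98 ± 0.182 against -3.33 ± 0.086 (SD, n = 3 each). Saline replicate 2 lay with the other saline mice here. The groups did not overlap, as for 23.9% of all 39340 pairs of tested microRNAs in either direction. The difference between the groups was 0.652 cycles (two-sided exact permutation test, p = 0.1, the smallest p that 3 mice against 3 allow, and 0.2 adjusted over the 2 seed-sharing pairs), and 0.558 cycles without saline replicate 2. For mmu-miR-146b minus mmu-miR-146a the values were 0.683, 0.817 and 0.697 cycles in the saline mice and 0.698, 0.829 and 1.22 cycles in the KA-SE mice. These overlapped, with a difference of 0.183 cycles that rested on KA-SE replicate 3 (exact permutation test, p = 0.2, adjusted p = 0.2) and was 0.031 cycles without it, or 0.226 cycles without saline replicate 2.

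The other 13 pairs were compared after their values had been seen and are given without a test. mmu-miR-155 minus mmu-miR-222 was nearly the same in the 3 saline mice, at 11.004, 11.054 and 11.057 cycles, and it was 10.34, 9.99 and 9.64 cycles in the KA-SE mice. The difference between the groups was -1.05 cycles, and -1.04 cycles without saline replicate 2. mmu-miR-21 minus mmu-miR-222 was 4.62, 6.63 and 5.01 cycles in the saline mice and 3.88, 3.60 and 3.70 cycles in the KA-SE mice, a difference of -1.69 cycles that was -1.09 cycles without saline replicate 2. The order of mmu-miR-21 and mmu-miR-146b was exchanged between the groups, since the Ct of mmu-miR-21 minus that of mmu-miR-146b was 0.445, 1.65 and 0.478 cycles in the saline mice, where mmu-miR-21 came later, and -0.225, -0.696 and -0.965 cycles in the KA-SE mice, where it came earlier. Between mmu-miR-21 and mmu-miR-155 the groups overlapped, and the difference of -0.642 cycles was -0.044 cycles without saline replicate 2. In all, 8 of the 15 pairs did not overlap between the groups, where 23.9% of all 39340 pairs of tested microRNAs did not, and without saline replicate 2 it was 13 of 15, where 33.6% did not. Pairs that share a microRNA are not independent.

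**Figure D4:**
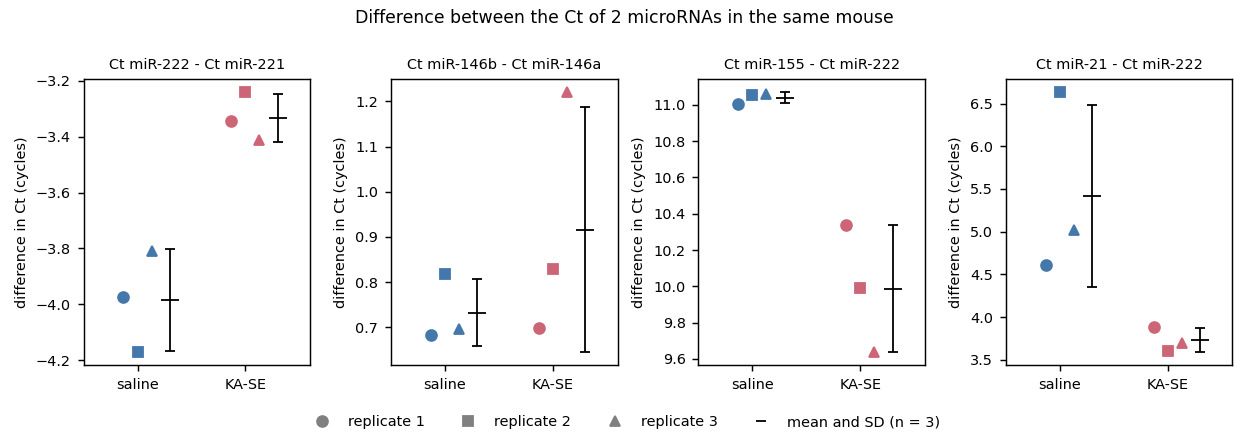
Difference in Ct between 2 microRNAs of the same mouse, in cycles, with symbols for the replicate number and black bars for the group mean and SD, for both seed-sharing pairs and for mmu-miR-155 and mmu-miR-21 against mmu-miR-222. The saline mice lie between -4.17 and -3.81 and the KA-SE mice between -3.41 and -3.24 for mmu-miR-222 minus mmu-miR-221, while the groups overlap for mmu-miR-146b minus mmu-miR-146a.

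The microRNAs most like each of the 6 were those whose Ct difference from it had the smallest SD over the 6 libraries. For mmu-miR-221 they were mmu-miR-495 (SD 0.082 cycles) and mmu-miR-379 (SD 0.112 cycles), against a median SD of 0.523 cycles over all other microRNAs. For mmu-miR-222 they were mmu-miR-30b (SD 0.124 cycles) and the myeloid microRNA mmu-miR-223 (SD 0.132 cycles), so the cluster partners were not each other's nearest, with an SD of 0.379 cycles between them. For mmu-miR-146a they were the rat assay rno-miR-345-3p (SD 0.127 cycles) and the endothelial mmu-miR-126-3p (SD 0.129 cycles), and for mmu-miR-146b they were mmu-miR-380-5p (SD 0.124 cycles) and mmu-let-7f (SD 0.144 cycles). The nearest to mmu-miR-21 were mmu-miR-544 (SD 0.221 cycles) and mmu-miR-369-3p (SD 0.225 cycles), where the median SD was 0.961 cycles, and the nearest to mmu-miR-155 were the rat assay rno-miR-351 (SD 0.309 cycles) and mmu-miR-203 (SD 0.324 cycles). Saline replicate 2 spans much of the range of each profile over 6 libraries, and these likenesses are a description.

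A list of 14 other microRNAs of neuroinflammation and gliosis, chosen with earlier results of these data known, held 0 that passed the test. Over U6 the log2 fold change was above 0 for 12 of them, as for 87.2% of all 281, the median being 0.79, and without saline replicate 2 for 9 of them, as for 62.6% of all, the median being 0.35 beside 0.115 for all tested. The groups did not overlap for 7 of the 14, all higher after KA-SE, where 19.2% of the 281 were. Without saline replicate 2 it was 7 higher and 1 lower, miR-223, where 19.6% of the 281 were higher and 8.90% lower. As the list was chosen in that way, these counts give no independent support. They also count miR-142-3p and miR-142-5p, both arms of the same precursor, apart. Most readily detected by mean Ct were miR-9, of neurons and neural progenitors, miR-132, which neuronal activity induces, and miR-125b-5p, of neurons and astrocytes. Their log2 fold changes over U6 were 1.07 (standard error 0.69), 0.59 (standard error 0.42) and -0.06 (standard error 0.41), with adjusted p = 0.556, 0.556 and 0.93 in limma. They were 0.30, 0.46 and -0.18 without saline replicate 2.
Markers of other cells were measured beside the 6. The leukocyte and microglia microRNAs miR-142-3p, miR-142-5p and miR-223 were all detected in every library, and their mean level over U6 was -14.24 to -11.52 in saline, -11.99 to -11.52 without saline replicate 2, and -11.53 to -11.22 in KA-SE mice. Within that list miR-142-3p had a log2 fold change of 2.02 (standard error 0.97, limma adjusted p = 0.556), or 0.85 without saline replicate 2. For miR-142-5p it was 1.456 (standard error 0.763, limma adjusted p = 0.556), or 0.605 without saline replicate 2, and for miR-223 it was 0.07, or -0.40. In the other lists saline replicate 2 also set the low end of the saline range, and without it the ranges of the groups overlapped. The neuronal list of 4 lay at -7.82 to -5.80 in saline, -6.02 to -5.80 without saline replicate 2, and -6.01 to -5.77 in KA-SE mice. Both endothelial microRNAs lay at -6.98 to -4.86, -5.15 to -4.86 and -5.13 to -4.95 in the same order, and both oligodendrocyte microRNAs at -14.61 to -10.59, -11.50 to -10.59 and -10.81 to -10.77. For the 3 microRNAs of choroid plexus and ependyma the ranges were -9.85 to -8.36, -8.59 to -8.36 and -8.74 to -8.54, and for miR-451 of erythrocytes -13.42 to -11.22, -11.45 to -11.22 and -11.61 to -11.01. The part of these cells in the values of mmu-miR-21 and mmu-miR-155 was not tested, and in dissected tissue a change in the number of cells of a type and one in the RNA per cell cannot be told apart.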

How the data were processed

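MicroRNAs were read with TaqMan assays on 1 Mouse microRNA fluidic card per mouse after Megaplex reverse transcription of total RNA. The authors deposited raw Ct, with 40 for no amplification, a table of Ct relative to a reference that the methods name as RNU6B, and fold changes, their own comparison, which were not used. The sources used here do not give the instrument settings. The normalized table does not equal raw Ct minus 1 constant of each library, so raw Ct was used, with the assay MammU6 as the reference and the authors' deposited normalized table as an alternative. Columns were matched to samples by name, with 0 sample columns left out.

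A Ct below 35 in each of the 6 libraries was required, and the 281 microRNAs that met it entered a limma 3.58.1 fit (R 4.3.3) without a block. P-values were adjusted over all of them by Benjamini-Hochberg, and calls needed an adjusted p under 0.05 with at least a 1.5-fold change. The fit was tested on simulated data. Ct values carry no read depth. Precision is limited by the 3 mice per group and by the spread among saline mice. Their median SD over U6 was 0.982, against 0.198 in KA-SE mice. The saline value includes saline replicate 2, which stood apart, and the median gap between saline replicates 1 and 3 was 0.473. Named are the 6 microRNAs, the 2 most alike to each, and the 3 of lowest mean Ct of a list of 14. The microRNAs and lists were chosen with earlier results of these data known, and miR-142-3p and miR-223 are given as markers. Alternatives were other references, quantile normalization, detection limits of 32 and 40, the methods' t-test, limma with trend and robust variances, a block for the replicate number, calls on the adjusted p alone, and 1 library left out at a time. Fits that combined another reference with the removal of saline replicate 2, and 13 of 15 pairs, were added after seeing the data.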

Additional observations from a re-analysis of the deposited data

How the results depend on the processing

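No alternative called any of the tested microRNAs. The detection limits, the methods' t-test, the trend and robust variances and the replicate block alter only the test, not the fold change. Their fold changes equal the main ones, so a sign could not turn there. The log2 fold changes of mmu-miR-21, mmu-miR-155 and mmu-miR-221 stayed positive under the 18 alternatives, these among them, from 0.68 to 2.34, from 0.50 to 1.49 and from 0.10 to 1.19, and those of the others turned. With the global mean as reference they were -0.16 for mmu-miR-146a, -0.35 for mmu-miR-146b and -0.55 for mmu-miR-222, and with quantile normalization -0.13, -0.21 and -0.11. With the snoRNA reference mmu-miR-222 was at -0.003. Leaving out 1 library at a time gave -0.062 to 0.83, -0.29 to 0.67 and -0.28 to 0.45, negative only without saline replicate 2. Without saline replicate 2 and with the global mean they were -0.16, -0.39 and -0.39, and with the snoRNAs -0.18, -0.41 and -0.40. Non-overlapping groups numbered 1 with quantile normalization (mmu-miR-21) and 4 with the snoRNAs without saline replicate 2, where mmu-miR-146b and mmu-miR-222 were lower. Over U6 without saline replicate 3 the groups did not overlap for mmu-miR-21, mmu-miR-155 and mmu-miR-221. In these settings the share of the 281 microRNAs without overlap was not counted, so the counts cannot be set against the card. Same-numbered saline and KA-SE mice are different animals. Their deviations correlated at 0.189, 0.236 and 0.047. Mice of different numbers were not compared, so these values cannot show whether the numbers pair the mice. With the replicate number as a block mmu-miR-21 was 1.80, with 0 microRNAs called. The number of mice limits what could be detected.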
